A study of Mus musculus with 4 samples.

Results

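Gata1 is the transcription factor that red cell and platelet precursors cannot do without, and the genes described here are Gata1, its partners and a set of early erythroid genes it is known to act on. The list named 10 genes by symbol: Gata1, Zfpm1, Gfi1b, Klf1, Nfe2, Epor, Car1, Car2, Blvrb and Ermap. Of these, 9 had library values among the 9244 genes with values, and Zfpm1 was not analysed here. RNA sequencing had been done on long-term haematopoietic stem cells (HSCs) of the C57BL/6 strain at 8-12 weeks of age, sorted as LSK CD34- FLk2- cells, which are lineage-negative marrow cells with Sca-1 and Kit but without CD34 and Flk2. A wild-type (WT) group and a Sin3B KO group had 2 libraries each (n = 2 throughout), made with the SMARTER low-input method from polyA RNA. Sin3B is a scaffold protein that brings histone deacetylases to genes. How the Sin3B allele was made, in which cells it was deleted and how many animals gave each library is not given in the sources used here. Accordingly, p-values reflect how far these libraries differ from each other, which may be technical. An exact permutation test of 2 libraries against 2 cannot give a two-sided p below 0.333, so single genes were tested with limma across all genes.

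In textbook haematopoiesis, Gata2 holds the GATA sites of many genes in stem and progenitor cells and Gata1 takes its place as cells turn to the erythroid and megakaryocytic lineages. Gata1 works with the cofactor Zfpm1 (FOG1), with Tal1, Lmo2 and Ldb1 in one DNA-binding complex, and with the factors Gfi1b, Klf1 and Nfe2. Its targets include the erythropoietin receptor Epor and genes of the red cell such as the carbonic anhydrases.

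The libraries held between 9950979 and 13700630 reads in the listed genes. Sin3b was at 1522 and 1825 normalised read counts in WT libraries, against 755 and 647 in Sin3B KO libraries, so its reads were lower and still present under the KO label. All 20 genes of a stem cell marker list were measured, among them Kit, Ly6a and Mecom. The same 20 include Cd34 and Flt3, whose proteins the sort selects against, with Cd34 at 4945 to 6508 and Flt3 at 354 to 1170. Libraries numbered 1 stood apart from those numbered 2. The summed level of 18 measured neutrophil and monocyte markers was 86090 in WT 1, 16744 in WT 2, 59637 in Sin3B KO 1 and 27452 in Sin3B KO 2. Over 9 measured B cell markers the sums were 4669, 1587, 5793 and 2287 in the same order.

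Values below are normalised read counts, and fold changes are on the log2(value + 1) scale as Sin3B KO over WT. All 9 measured genes were above 0 in log2 fold change, against 53.4% of all genes, and their median was 0.47 against 0.03. In 6 of the 9 (Gata1, Gfi1b, Epor, Car1, Car2 and Blvrb) the groups did not overlap and the KO was higher, which held for 24.7% of all genes (44.1% for either direction). None passed a Benjamini-Hochberg adjusted p of 0.05 in limma, as was so for 0 of 9244 genes (0%). At an unadjusted p under 0.05 there were 2, Gata1 and Car1, against 4.97% of all genes in that direction and 8.91% (824 genes) in either. The authors' deposited table calls only Gata1 of the 9: it had an adjusted p under 0.05 and a higher level, as did 0.206% of the genes with values. For all 9 genes the authors' log2 fold change was below the limma one. It was 0.48 against 1.06 for Car1, 0.34 against 1.01 for Ermap and 0.17 against 0.45 for Klf1. Leaving out Sin3B KO 1 brought the median to 0.14 and the number above 0 to 7. Leaving out Sin3B KO 2 brought the median to 0.90.

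**Figure D1:**
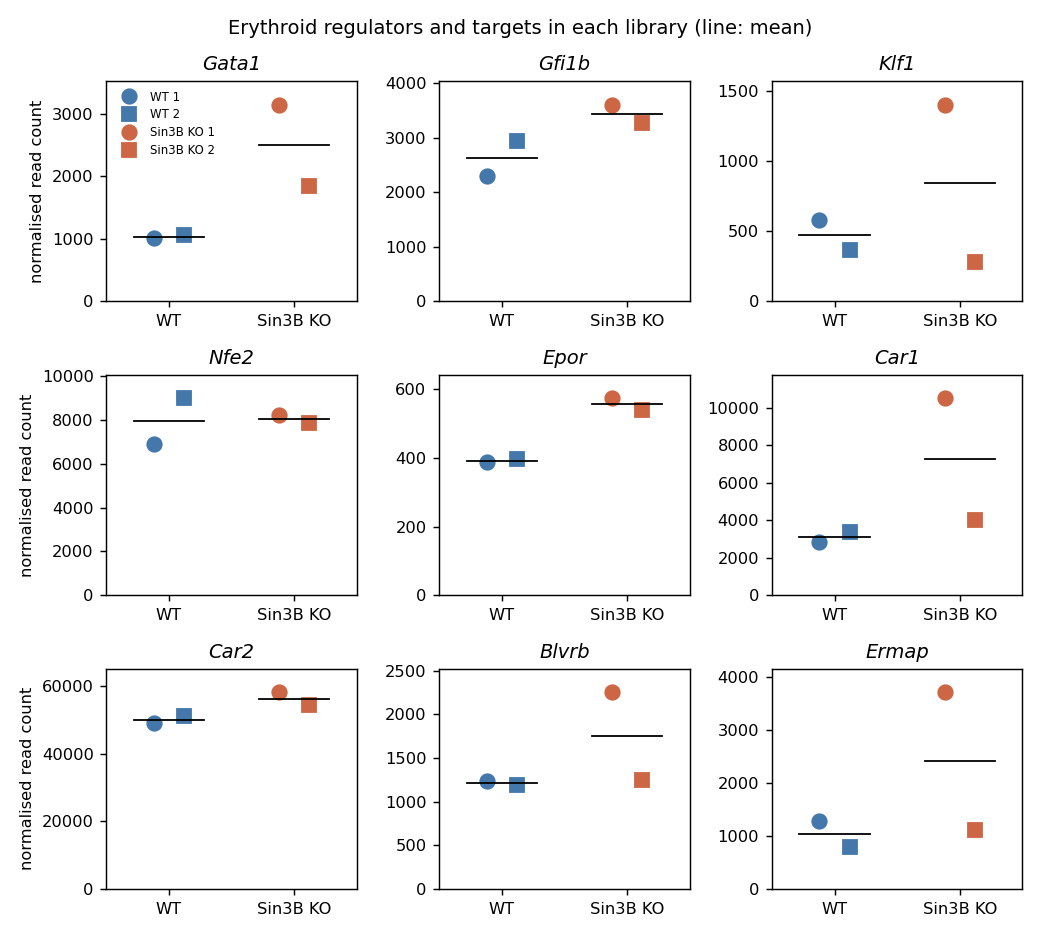
Normalised read count (vertical axes, from 0) of each of the 9 measured genes in WT and Sin3B KO libraries. Circles are libraries numbered 1, squares those numbered 2 and lines the group means. Gata1 lies at 1004 and 1063 in WT libraries, against 3144 and 1842 in KO libraries, while Nfe2 overlaps between the groups.

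Gata1 (ENSMUSG00000031162) was at 1004 in WT 1, 1063 in WT 2, 3144 in Sin3B KO 1 and 1842 in Sin3B KO 2. Both KO libraries were higher than both WT libraries, and the lower KO value was 1.73 times the higher WT value. The means were 1034 ± 41.6 (SD, n = 2) and 2493 ± 920 (SD, n = 2), a 2.41-fold difference. The log2 fold change was 1.22 (SE 0.27, 95% interval 0.61 to 1.83, unadjusted p = 0.0016), and the adjusted p was 0.548 (limma, Benjamini-Hochberg). The authors' deposited table gives Gata1 a log2 fold change of 0.99 (standard error 0.22) and an adjusted p of 0.0070. A log2 fold change of at least 1 was seen in 0.736% of all genes. The WT libraries differed little in Gata1, whereas Sin3B KO 1 had 1.71 times the level of Sin3B KO 2. Without Sin3B KO 1 the log2 fold change was 0.83, and without Sin3B KO 2 it was 1.60. Gata1 is X-linked. Xist, the RNA of the inactive X, was at 4321, 1221, 1713 and 1873 in WT 1, WT 2, Sin3B KO 1 and Sin3B KO 2, and the Y-linked Ddx3y was read at 1037 to 1717, so each library held RNA of both sexes.

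Gata2, the factor that precedes Gata1, was at 4408 and 5818 in WT libraries, against 4359 and 4447 in KO libraries (log2 fold change -0.20, limma Benjamini-Hochberg adjusted p = 0.719). The ratio of Gata1 to Gata2 counts, not corrected for length, was 0.228 in WT 1 and 0.183 in WT 2. It was 0.721 in Sin3B KO 1 and 0.414 in Sin3B KO 2. Gata2 counts were above Gata1 counts in all 4 libraries, and the ratio was higher in both KO libraries than in both WT libraries. Relative to Kit, the stem cell factor receptor, Gata1 stood at 0.045 and 0.060 in WT libraries, against 0.151 and 0.093 in KO libraries.

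Gfi1b, a zinc finger repressor of erythroid and megakaryocytic development, was at 2296 and 2942 in WT libraries, against 3603 and 3259 in KO libraries. The groups did not overlap, but the lower KO value was only 1.11 times the higher WT value. Its log2 fold change was 0.40 (SE 0.20, 95% interval -0.07 to 0.86, limma Benjamini-Hochberg adjusted p = 0.550), and it was 0.22 without WT 1.

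Klf1, the activator of adult globin and many other red cell genes, was at 579 and 367 in WT libraries, against 1404 and 282 in KO libraries. The groups overlapped, with Sin3B KO 1 highest and Sin3B KO 2 lowest of the 4 libraries. These KO values differed 4.98-fold. The log2 fold change was 0.45 (SE 0.63), turned to -0.71 without Sin3B KO 1 and was 1.60 without Sin3B KO 2. It was 0.78 without WT 1 and 0.12 without WT 2. The ratio of Klf1 to Gata1 counts was 0.577 and 0.345 in WT and 0.447 and 0.153 in KO libraries, so the groups overlapped.

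Nfe2, a bZIP factor of platelet and globin gene regulation, was at 6913 and 8984 in WT libraries, against 8207 and 7868 in KO libraries. Both KO values lay between the WT values. The log2 fold change was 0.03 with a 95% interval of -0.43 to 0.48, and its sign turned under other scalings.

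Epor, the receptor through which erythropoietin acts, was at 389 and 397 in WT libraries, against 574 and 541 in KO libraries. Within each genotype the values lay close together, and the groups were apart by 1.36-fold between their nearest libraries. The means were 393 ± 5.54 (SD, n = 2) and 558 ± 23.0 (SD, n = 2). With a log2 fold change of 0.50 (SE 0.25, 95% interval -0.07 to 1.08) it did not pass (limma, Benjamini-Hochberg adjusted p = 0.550). Leaving out any 1 library left the log2 fold change between 0.46 and 0.55.

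Car1 and Car2 encode cytosolic carbonic anhydrases, the enzymes that interconvert carbon dioxide and bicarbonate in red cells. Car1 was at 2847 and 3353 in WT libraries, against 10488 and 3984 in KO libraries. Both KO values were above WT, though most of the difference lay in Sin3B KO 1, which had 2.63 times the level of Sin3B KO 2. The log2 fold change of Car1 was 1.06 (SE 0.38, unadjusted p = 0.023, limma Benjamini-Hochberg adjusted p = 0.548), and it was 0.37 without Sin3B KO 1 and 1.76 without Sin3B KO 2. Car2 was at 49010 and 51127 in WT libraries, against 58231 and 54321 in KO libraries. The groups were apart by 1.06-fold between their nearest libraries, with a log2 fold change of 0.17 (95% interval -0.29 to 0.63), which was 0.083 with the same total per library and 0.054 with upper quartile scaling. The ratio of Car1 to Car2 counts was 0.058 and 0.066 in WT, 0.180 in Sin3B KO 1 and 0.073 in Sin3B KO 2. Of the other carbonic anhydrases, Car3 and Car9 were measured. Car3 was at 170 and 156 in WT libraries, against 402 and 419 in KO libraries (log2 fold change 1.33, SE 0.33, limma Benjamini-Hochberg adjusted p = 0.548), and Car9 was lower, at 295 and 346 in WT libraries, against 269 and 295 (log2 fold change -0.18).

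Blvrb, which reduces biliverdin and flavins in red cells, was at 1235 and 1187 in WT libraries, against 2255 and 1245 in KO libraries. The value in Sin3B KO 2 was only 1.01 times the higher WT value, and the log2 fold change of 0.47 (SE 0.28) was 0.04 without Sin3B KO 1 and 0.90 without Sin3B KO 2. Ermap, a membrane protein of erythroblasts, was at 1290 and 784 in WT libraries, against 3708 and 1108 in KO libraries. Sin3B KO 2 lay between the WT libraries. The log2 fold change of Ermap was 1.01 (SE 0.49, 95% interval -0.11 to 2.14), 0.65 without WT 2, 0.14 without Sin3B KO 1 and 1.88 without Sin3B KO 2.

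**Figure D2:**
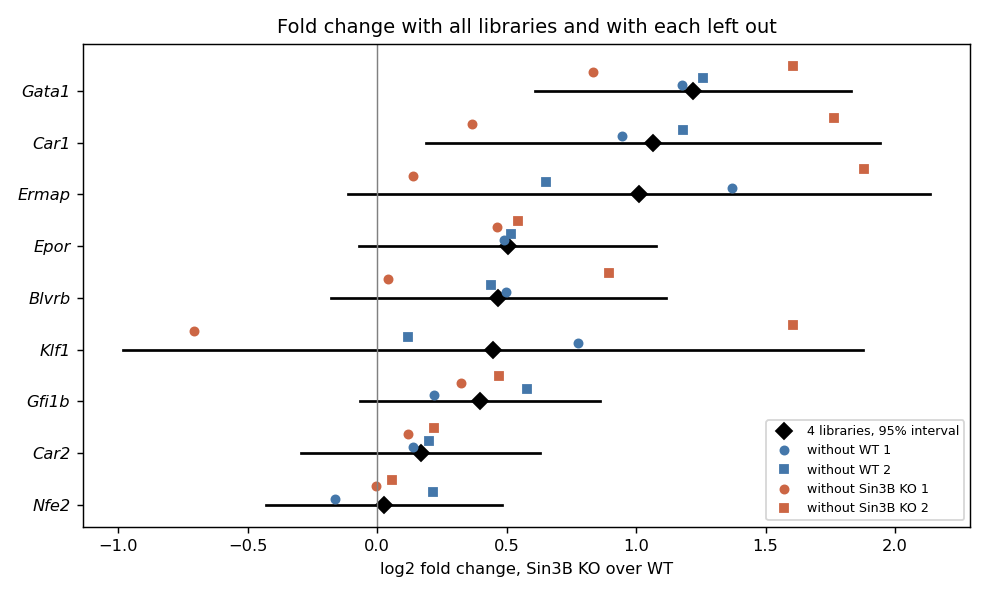
Log2 fold change of Sin3B KO over WT (horizontal axis) for the 9 genes, with the limma estimate and its 95% interval from 4 libraries (black) and the estimates with each library left out (coloured, drawn slightly higher for legibility). Epor stays between 0.46 and 0.55 whichever library is left out, while Klf1 runs from -0.71 to 1.60.

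Counts divided by exon length in kilobases allow the genes to be set against each other. In WT libraries Car2 was by far the most abundant of the 9, at 20236 and 21110 per kilobase, above 99.98% of the genes with a length. Nfe2 (2313 and 3007) and Car1 (2281 and 2687) followed and overlapped each other. Gfi1b came next, at 1255 and 1608. Blvrb (444 and 427) and Gata1 (412 and 436) overlapped, while Ermap (243 and 148) overlapped both Klf1 (379 and 240) and Epor (195 and 199), and Klf1 lay above Epor. In the KO, Gata1 was at 1290 and 756 per kilobase, above Blvrb in both libraries (810 and 447), and Car1 was above Nfe2 in both. No other gene of the GENCODE M21 annotation overlapped an exon of the 9 genes.

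The 2 libraries of a genotype differed more in KO libraries than in WT for several of the 9 genes, a comparison that was not tested. In the KO, 5 of 9 (Gata1, Klf1, Car1, Blvrb and Ermap) were at least 1.5 times higher in Sin3B KO 1 than in Sin3B KO 2, against 7.75% of all genes. In WT, 2 of 9 (Klf1 and Ermap) were at least 1.5 times higher in WT 1 than in WT 2, against 12.2%. Sin3B KO 1 had the highest value of the 4 libraries for 8 of the 9 genes, which was so for 26.1% of all genes. Sin3B KO 2 was above both WT libraries for 6 of 9, against 36.1% of all genes.

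Several late erythroid genes were higher in the library numbered 1 of both genotypes. The median log2 difference of the list was 0.78 for WT 1 minus WT 2 and 0.82 for Sin3B KO 1 minus Sin3B KO 2. Epb4.1, Gypc, Bpgm, Tfr2 and Tal1 went the other way in both genotypes. Slc4a1, the band 3 anion exchanger of the red cell membrane, was at 1194 in WT 1, 0 in WT 2, 749 in Sin3B KO 1 and 50.8 in Sin3B KO 2. A count of 0 in WT 2 allows up to 3 reads, a value of 2.97, by counting error alone. Gata1 in the same order was at 1004, 1063, 3144 and 1842. For Klf1, Ermap and Blvrb the order of libraries within each genotype was that of Slc4a1, though the WT values of Blvrb were close (1235 and 1187). Of 22 measured late erythroid genes, 16 lay above 0 in log2 fold change, against 53.4% of all genes (median 0.38). That number was 9 without WT 2 and 9 without Sin3B KO 1, and without Sin3B KO 2 the median was 0.78. The groups did not overlap in 3 of the 22 that were higher, against 24.7% of all genes. They did not overlap in 1 that was lower, against 19.4%. At an unadjusted p under 0.05, 3 of the 22 were higher, against 4.97% of all genes, and 0 lower, against 3.95%: Slc14a1, a urea transporter (log2 fold change 0.78), Icam4, an adhesion protein of erythroblasts (0.87), and Bpgm, which makes bisphosphoglycerate (0.67). In bulk samples, fewer cells of a type and less RNA per cell cannot be told apart.

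**Figure D3:**
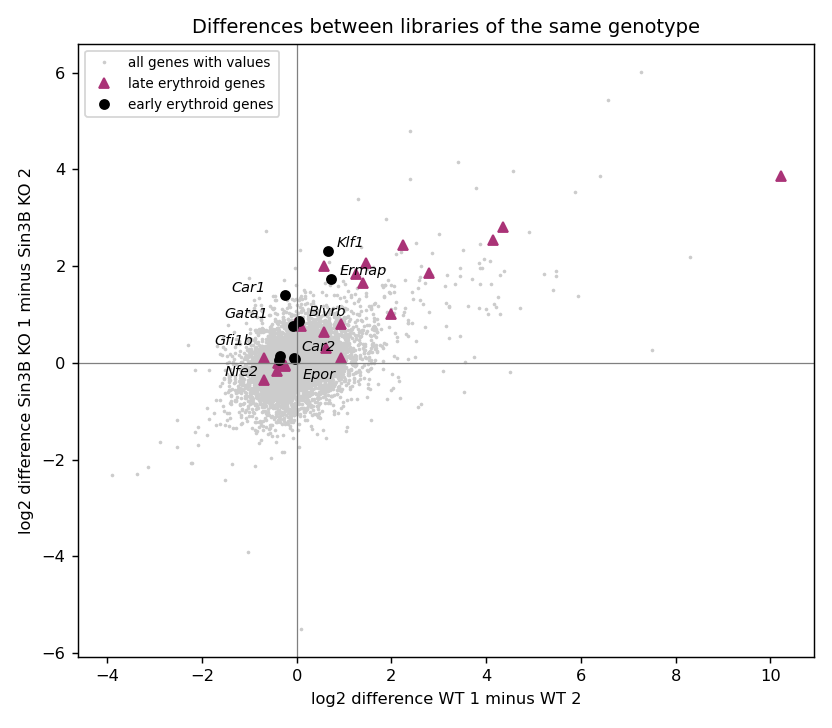
Log2 difference between the libraries of the same genotype, WT 1 minus WT 2 (horizontal) and Sin3B KO 1 minus Sin3B KO 2 (vertical), for all genes with values (grey), the 22 late erythroid genes (triangles) and the 9 early erythroid genes (black). Gata1, Car1 and Blvrb lie near 0 in WT and above 0 in KO libraries, whereas Klf1 and Ermap lie well above 0 in both.

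Gata1 is also used by megakaryocytes and by mast cells, basophils and eosinophils. Over 18 measured megakaryocyte and platelet markers the summed level was 58666, 53149, 54101 and 61384 in WT 1, WT 2, Sin3B KO 1 and Sin3B KO 2, and 9 lay above 0 and 9 below (median -0.03). F2r, the thrombin receptor, was higher in both KO libraries (2074, 2296, 5374 and 3849) and Itgb3, a platelet integrin chain, lower (1788, 1073, 636 and 1029). Over 7 measured mast cell, basophil and eosinophil markers the sums were 22560, 14604, 17712 and 17967, highest in WT 1. Srgn, a granule proteoglycan, was at 13123, 9664, 11851 and 11582, and Slc18a2, a monoamine transporter, at 5623, 4127, 3869 and 4646. Prss34, a basophil protease, was at 1979, 9.89, 328 and 272 in that order. Only 2 of 16 listed T and NK cell markers were measured. Both were above 0 (median 0.29), with Nkg7 at 1602, 1190, 2485 and 1331 and Lck at 350, 380, 452 and 379. Of the neutrophil and monocyte markers 10 were above 0 and 8 below, with Mpo at 17017, 2359, 19732 and 5569 and Lyz2 at 12893, 4674, 8755 and 5694. Of the B cell markers 8 of 9 were above 0, with Bank1 at 149, 59.3, 576 and 416. Of the stem cell markers 12 of 20 were above 0 (median 0.06), and Fgd5 was at 710, 1240, 257 and 643. Of the late erythroid, mast cell, neutrophil, B cell and T cell lists, Slc4a1 and Il7r in WT 2 were the only measured markers at 0. Library values were at hand for 22 of 42 listed symbols of the late erythroid list and 7 of 19 of the mast cell list. They were at hand for 18 of 23 neutrophil and monocyte and 9 of 17 B cell symbols. The authors list no gene with a mean under 120.2, so these counts leave out weakly read markers. What part other cells have in the differences of the 9 genes was not tested.

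Most genes listed for the DNA-binding complex of Gata1 and for related factors lay below 0. Gfi1b, Klf1 and Nfe2, described above, are not in that list and lay above 0 (log2 fold change 0.40, 0.45 and 0.03). Of 19 measured genes of the list, 16 had a log2 fold change below 0, against 46.6% of all genes, and the median was -0.28. In 10 both KO values lay below both WT values, which was so for 19.4% of all genes, and in 0 above. At an unadjusted p under 0.05, 5 were lower and 0 higher, against 3.95% of all genes in the lower direction, and 0 passed after adjustment. Lmo2, the bridging protein of the complex, was at 4510 and 6289 in WT libraries, against 2952 and 3916 in KO libraries (log2 fold change -0.65, SE 0.23). Tcf12, an E protein that pairs with Tal1, was at 822 and 1200 in WT libraries, against 543 and 657 in KO libraries (log2 fold change -0.73). Runx1 was at 1196 and 1515 in WT libraries, against 823 and 960 in KO libraries (log2 fold change -0.60), and Myb was at 5907 and 5197 in WT libraries, against 4235 and 3878 in KO libraries (log2 fold change -0.45). In each of these 4 genes the groups did not overlap. The number below 0 lay between 16 and 18 when each library was left out in turn, and the median was -0.43 without Sin3B KO 1. These genes have long transcripts, with a median exon length of 6808 bases against 4664 for all genes, and fold changes were lower in longer genes (Spearman rho -0.235 across genes, which are not independent replicates). With that trend removed 17 of 19 lay below 0, with a median of -0.21 against 0.04 for all genes. What part exon length has in these differences was not tested. The 9 early erythroid genes are short, with a median exon length of 2422 bases. With the trend removed 8 of them lay above 0, with a median of 0.41.

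Corepressors that bind Gfi1b and Zfpm1 lay below 0 in 12 of 16 cases (median -0.37). The groups did not overlap in 8 of the 16 that were lower, against 19.4% of all genes, and in 2 that were higher, against 24.7%. Without WT 2 the median was -0.16. These genes too are long, with a median exon length of 5249 bases, and with the length trend removed the median was -0.29. Ehmt2, a histone H3 lysine methyltransferase, was at 882 and 1220 in WT libraries, against 568 and 697 in KO libraries (log2 fold change -0.72), and Chd4, the NuRD remodeller, at 4783 and 5008 and at 3281 and 3780 (log2 fold change -0.47). Of 6 measured partners and competitors of Nfe2, 5 lay below 0 (median -0.52). Among those with a mean of at least 500, 2 lay below 0 and the median was -0.12. The median exon length of the 6 was 5527 bases, and with the length trend removed their median was -0.47. Mafg, a small Maf protein that binds DNA together with Nfe2, was at 499 and 466 in WT libraries, against 286 and 288 in KO libraries (log2 fold change -0.75). Bach1, a haem-sensing repressor at the same DNA sites, was at 459 and 344 in WT libraries, against 210 and 245 in KO libraries (log2 fold change -0.80). In both genes, named for an unadjusted p under 0.05 (limma), the groups were apart. Over the 6 genes the groups did not overlap in 4 that were lower, against 19.4% of all genes. They did not overlap in 1 that was higher, against 24.7%. Lineage factors opposed to Gata1 were split, with 3 of 6 above 0, and their most abundant members were Fli1 (8436, 6635, 6268 and 7908) and Ikzf1 (2679, 2354, 3782 and 2674).

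Of 20 measured genes of a list for Epor signalling, which also held the receptor Kit, 7 lay above 0 and 13 below (median -0.10). Without Sin3B KO 1 the median turned to 0.047, and without WT 2 it was -0.031. It was -0.17 without WT 1 and -0.17 without Sin3B KO 2, -0.19 with the same total per library, -0.22 with upper quartile scaling and -0.00016 once means under 500 were left out. None of the 20 passed after adjustment (limma, Benjamini-Hochberg). The kinase Jak2 (782, 768, 588 and 836) and Stat5a (2031, 2169, 2187 and 1652) overlapped between the groups. Genes of haem synthesis and turnover lay above 0 in 13 of 18 cases (median 0.21). That median was 0.089 without Sin3B KO 1, 0.47 without Sin3B KO 2, 0.12 with the same total per library and 0.095 with upper quartile scaling. Alad, the second enzyme of the pathway, was at 1095 and 1367 in WT libraries, against 1963 and 1748 in KO libraries (log2 fold change 0.60). Urod, a later enzyme, was at 1156 and 1224 in WT libraries, against 1788 and 1721 in KO libraries (log2 fold change 0.56). Slc11a2, an iron transporter, was at 566 and 618 in WT libraries, against 1379 and 943 in KO libraries (log2 fold change 0.95). Slc25a37, the mitochondrial iron importer, was lower, at 1877 and 1503 in WT libraries, against 1001 and 1016 in KO libraries (log2 fold change -0.74). The groups did not overlap in any of these 4 genes, which were named for an unadjusted p under 0.05 (limma). Over the 18 genes the groups did not overlap in 6 that were higher, against 24.7% of all genes. They did not overlap in 1 that was lower, against 19.4%. Alas2, the red cell form of the first enzyme, was at 756, 7.91, 555 and 37.5 in WT 1, WT 2, Sin3B KO 1 and Sin3B KO 2, again higher in the libraries numbered 1.

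**Figure D4:**
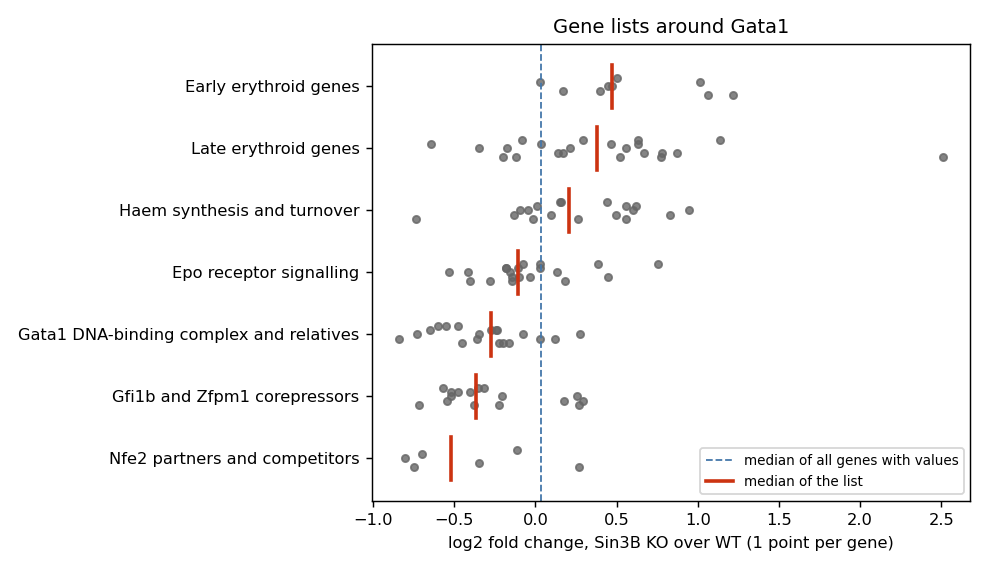
Log2 fold change of Sin3B KO over WT (horizontal axis) for each gene of 7 lists, with the median of each list (red) and of all genes with values (dashed, 0.03). The medians run from 0.47 for the early erythroid genes to -0.52 for the partners and competitors of Nfe2.

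RefSeq promoter sequences (build GRCm38.p6, not the authors' build mm9) were found for 6 of the 9 measured genes. They were searched in the 250 bases before the start for the GATA motif, spelled AGATAA or AGATAG or TGATAA or TGATAG, and for the Klf motif core CACCC, both on either strand. Counting the first promoter listed for each gene, a GATA motif was found in 4 of 6 (Gfi1b, Klf1, Epor and Ermap), against 16.4% of 7079 first promoters of genes with values, and CACCC in 6 of 6, against 55.7%. Blvrb has 2 promoters in the table, and its second, which is not in these counts, also holds a GATA motif. The promoters of Gata1, Gfi1b and Epor are shown as those of a factor, a partner and the receptor that were higher in both KO libraries. Blvrb was higher in both as well, and 30 bases around the GATA motif of its second promoter are shown. For Klf1 and Ermap, whose groups overlapped, the same stretch around the GATA motif is shown. Capitals mark the motifs, and where a motif lies on the other strand its complement is read. The windows of Klf1 and Ermap overlap an annotated exon and untranslated region of the same gene. For Epor, the bases checked after the start were not found in a GENCODE transcript of the gene. A match of letters is a description and shows no binding.
Gata1, chrX:7967911-7968160, minus strand, within an intron of a longer annotated Gata1 transcript: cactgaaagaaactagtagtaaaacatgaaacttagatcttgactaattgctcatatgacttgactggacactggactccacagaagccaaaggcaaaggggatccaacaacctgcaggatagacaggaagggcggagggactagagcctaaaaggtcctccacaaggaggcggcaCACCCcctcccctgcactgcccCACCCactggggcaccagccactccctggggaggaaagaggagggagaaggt
Gfi1b, chr2:28621983-28622232, minus strand, upstream of the gene: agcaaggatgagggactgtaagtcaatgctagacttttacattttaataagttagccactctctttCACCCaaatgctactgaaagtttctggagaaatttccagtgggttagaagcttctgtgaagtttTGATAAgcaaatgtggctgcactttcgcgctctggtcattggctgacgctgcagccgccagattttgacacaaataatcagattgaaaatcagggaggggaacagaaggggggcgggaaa
Epor, chr9:21963577-21963826, minus strand, upstream of the gene: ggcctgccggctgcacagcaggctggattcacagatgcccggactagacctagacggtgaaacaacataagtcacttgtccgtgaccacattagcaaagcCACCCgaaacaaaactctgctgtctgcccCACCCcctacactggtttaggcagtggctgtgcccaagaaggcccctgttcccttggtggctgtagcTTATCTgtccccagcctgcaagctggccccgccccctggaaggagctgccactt
Klf1, chr8:84901890-84901919, plus strand: tttgcctgggtcTTATCAgggaagacagcc
Ermap, chr4:119190045-119190074, minus strand: tgaacgctcgctTTATCAggggtgggcaga
Blvrb, chr7:27452210-27452239, plus strand, second promoter: aaccagatcttcTGATAGagccacaagggc
The GATA motif lay 54 to 49 bases before the start in Epor, 67 to 62 in Ermap, 80 to 75 in Klf1, 120 to 115 in Gfi1b and 196 to 191 in the second promoter of Blvrb. Gata1 itself had 2 CACCC cores, 74 to 70 and 52 to 48 bases before its start, and no GATA motif in this window.

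The likeness of profiles was measured as the Euclidean distance between log2(value + 1) values over the 4 libraries, each centred on its own mean. Among genes outside the list, Mfsd2b lay nearest to Gata1 (distance 0.23; 1095, 1211, 3097 and 1724 in WT 1, WT 2, Sin3B KO 1 and Sin3B KO 2). Mns1 (0.24), F2r (0.26), Slamf8 (0.28) and Slc11a2 (0.32) followed. Within the list Car1 was the gene nearest to Gata1, at 0.48, Gfi1b and Epor were 0.26 apart and Klf1 and Ermap 0.69. The gene nearest to Klf1 was Aqp1 (0.32), then Rhag (0.55), both from the late erythroid list. Nearest to Ermap was Slc38a5 (0.13), and nearest to Car1 was Golm1 (0.29). For Gfi1b, Nfe2, Epor and Car2, whose values varied less, the nearest genes lay at 0.01 to 0.02 (Lman2, Ap5z1, Zfp472 and AU022252). With 4 libraries such likeness is a description of these libraries.

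**Figure D5:**
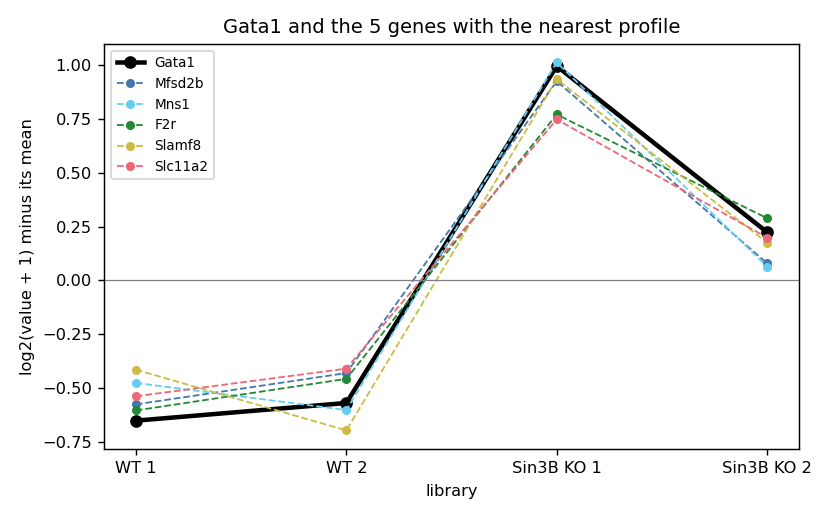
Log2(value + 1) minus its mean over the 4 libraries (vertical axis) for Gata1 (black) and the 5 genes with the smallest distance to it, by library (horizontal axis). All 6 genes are below their mean in both WT libraries and above it in both KO libraries, with Sin3B KO 1 highest.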

How the data were processed

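RNA sequencing of 2 WT and 2 Sin3B KO libraries was analysed from 1 deposited table. Per the submitters' processing notes, Bowtie, DESeq and the build mm9 were used, with versions, counting tool and annotation not given in the sources used here. Library values are a signal: the values deposited by the authors are read counts scaled by a constant for each library (100% are whole multiples of that library's step, within 0.01 of a step). The authors' deposited table also holds their log2 fold change, its standard error, a test score, and p-values before and after adjustment. The lowest mean in it is 120.2, so weakly read genes were not analysed here.

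From these values limma 3.58.1 (R 4.3.3) was fitted on log2(value + 1) with a trended prior and genotype as the only term, over all 9244 genes, with Benjamini-Hochberg adjustment and a threshold of 0.05. The median half-width of a 95% interval was 0.60 on the log2 scale. A further 552 genes have no library values and were left out. The fit was run on simulated counts, where its median fold changes came close to those set. Those counts had a single spread setting and no difference between library numbers. How the fit performs on libraries like these was not tested. Exon lengths came from GENCODE M21 (GRCm38) through Ensembl identifiers for 9000 genes. The titles number the libraries 1 and 2; the descriptions number them 1 and 3. The members, gene lists and tests were chosen with earlier results of these data known. Genes of the other lists are named by this rule: up to 4 with the smallest unadjusted p under 0.05, else the 2 most abundant (some genes are not reported here); Slc4a1, Alas2, Prss34, Car9, Jak2 and Stat5a were chosen after their values were seen. Alternatives were 3 scalings, pseudocounts of 0.1 and 5, a mean of at least 500, no trended prior, a block for replicate number, and leaving out single libraries. Removing the exon length trend by lowess (statsmodels 0.14.6) was chosen after seeing the data.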

Additional observations from a re-analysis of the deposited data

How the results depend on the processing

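Over genes, the difference between WT 1 and WT 2 correlated with that between Sin3B KO 1 and Sin3B KO 2 (Pearson r 0.465), but what the number marks is not stated. In a fit with a replicate block (library numbers as a term), 27 genes passed instead of 0, Gata1 alone among the 9 (limma, Benjamini-Hochberg adjusted p = 0.032); over all alternatives the adjusted p of Gata1 ran from 0.032 to 0.997. Leaving out 1 library gave 0 to 1 genes passing. The median log2 fold change of the 9 ran from 0.14 (without Sin3B KO 1) to 0.90 (without Sin3B KO 2). Klf1 ran from -0.71 to 1.60 over the left-out libraries. Nfe2 ran from -0.16 to 0.22 over them, and was -0.057 with the same total per library, -0.086 with upper quartile scaling and -0.028 with the exon length trend removed; the cause was not tested. The other 7 genes stayed above 0 under every alternative run. Upper quartile scaling moved the median of all genes from 0.03 to -0.08, and the genes under an unadjusted p of 0.05 from 459 higher and 365 lower to 209 and 672; the same total gave 257 and 608, no trended prior 280 and 431, and a mean of at least 500 gave 442 and 180. The median of the late erythroid list was -0.08 without WT 2 and -0.26 without Sin3B KO 1. The 2 planned count tests on reads recovered from the steps were not run. A group of 2 left with 1 library was assumed to vary like the other group.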
